A study of Rattus norvegicus with 56 samples.

Results

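The oligodendrocyte miRNAs of rat hippocampus were examined through 3 mature strands, rno-miR-219a-5p, rno-miR-338-5p and rno-miR-3065-5p, which were chosen by name, with earlier results of these data known. They are 3 of the 367 mature miRNAs counted, 333 of which had a read in any library. The study sequenced small RNA from the hippocampus of 56 rats, 1 library per rat, after fluid percussion injury (the TBI rats, n = 28) or sham surgery (the sham rats, n = 28). There were 4 TBI and 4 sham rats at each of 7 intervals after surgery, which were 24 h, 2 w, and then 1 m, 2 m and 3 m, followed by 6 m and by 12 m (labelled 1 year). Each rat was sampled once, so different intervals are different rats, and time after surgery, age and cohort cannot be told apart. The labels give no strain, sex or age, and all groups had surgery, so there was no unoperated rat. The questions were whether these strands differed between TBI and sham rats at any interval, and whether they changed over the year after sham surgery.

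Oligodendrocytes wrap the axons of the central nervous system in myelin, and they arise throughout life from dividing precursor cells. MiR-219 and miR-338 rise as precursors leave the cell cycle, and both repress transcripts that hold the precursor state, among them those for the receptor PDGFRA and the transcription factors SOX6 and HES5. In animals that lack miR-219, oligodendrocytes mature late. Most of what is known of miR-338 concerns its other arm, miR-338-3p. A miRNA finds its targets chiefly through its seed, bases 2 to 8 of the mature strand. Whole hippocampus mixes oligodendrocytes with neurons, astrocytes, microglia and vessel cells, and in such tissue fewer cells of a type and less RNA per cell cannot be told apart.

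The mature sequences are shown 5′ to 3′ with the seed in capitals, because the seeds show that the strands, although named together, do not address the same target sites.

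rno-miR-219a-5p: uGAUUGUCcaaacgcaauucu

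rno-miR-338-5p: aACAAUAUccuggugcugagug

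rno-miR-3065-5p: uCAACAAAaucacugaugcu

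No seed was shared between the 3 strands. In the RefSeq rat miRNAs, the seeds of miR-219a-5p and miR-338-5p belonged to no other mature strand, and the seed of miR-3065-5p was shared with 1 other, rno-miR-7a-1-3p. On the GRCr8 assembly miR-219a-5p lies at chr3:33516561-33516581 on the minus strand, in the hairpin Mir219-2, inside the span of the gene Cercam on the opposite strand. The same 21 bases also stand in a second hairpin, Mir219a1 on chromosome 20, whose nearest coding genes are Ring1 and Hsd17b8. A read of miR-219a-5p therefore cannot be assigned to 1 of its 2 genes.

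MiR-338-5p (chr10:105796381-105796402, minus strand) and miR-3065-5p (chr10:105796345-105796364, plus strand) come from 1 locus read on both strands. Both hairpins lie inside the span of Aatk, a kinase gene on the minus strand, so that Mir338 has the orientation of Aatk and Mir3065 the opposite one. The hairpins are printed with the mature arms in capitals to show that each is the reverse complement of the other over 66 bases.

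Mir338: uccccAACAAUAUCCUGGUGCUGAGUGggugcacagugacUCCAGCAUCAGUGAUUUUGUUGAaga

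Mir3065: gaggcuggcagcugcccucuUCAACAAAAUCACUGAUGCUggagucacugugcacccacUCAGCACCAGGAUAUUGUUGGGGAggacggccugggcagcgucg

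The 20 bases of miR-3065-5p all lie opposite the other arm, miR-338-3p, and miR-338-5p lies opposite miR-3065-3p over 19 bases. The 2 strands measured here share no position, and their longest common run of letters on the same strand is 5 bases, so that their reads can be told apart by sequence. The 3p arms of the 3 miRNAs were not analysed here, since 309 of the 367 strands in the table are 5p arms and 5 are 3p arms.

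The number of reads behind the 3 strands differed widely, and it sets how much can be said of each. Levels are given as CPM, reads per 1000000 miRNA reads after scaling of the library (TMM normalization). Library totals ran from 2083604 to 12468979 reads with a median of 5332934.5, except for 1 library, TBI at 2 m replicate 1 (rat X747), which held 69628. MiR-338-5p had 185 to 22175 reads per library and 1262 to 3013 CPM with a median of 1895, place 43 of the 367. MiR-219a-5p had 11 to 4302 reads and 62.2 to 517 CPM with a median of 260, place 93. MiR-3065-5p had 0 to 50 reads with a median of 10, 666 reads in all 56 libraries, and 0 to 5.65 CPM, place 226. Ligation efficiency differs between miRNAs, so that the distance between these levels is one of read counts and not of molecules. The lowest value of miR-338-5p and of miR-219a-5p in read counts came from the library of rat X747.

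MiR-3065-5p had no read in 2 libraries. In the library of rat X747 a count of 0 allows a level of up to 34.4 CPM (3 reads, counting error only), above every value measured, so this 0 carries no information. In TBI at 6 m replicate 1, with 5096063 reads, it allows up to 0.592 CPM. Within groups the variance of miR-3065-5p was 1.93 times that of counting alone (chi-square per degree of freedom), and in 7 of the 14 groups this ratio was below 1. The same ratio was 199 for miR-219a-5p and 399 for miR-338-5p, whose spread between rats was far above the counting error. As the ratio grows with the number of reads, it does not rank the strands by their spread between rats.

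Rats of 1 group differed less in miR-338-5p than in the other two strands. The pooled within-group SD of log2 CPM was 0.54 for miR-3065-5p, 0.51 for miR-219a-5p and 0.28 for miR-338-5p, against a median of 0.28 over the 244 miRNAs that passed the filter on low counts in the whole set. The SD of miR-3065-5p includes its counting error. The biological coefficient of variation of edgeR, which leaves counting error out, was 0.34 for miR-219a-5p (place 25 of 244 from the most variable), 0.27 for miR-3065-5p (place 37) and 0.19 for miR-338-5p (place 117).

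**Figure D1:**
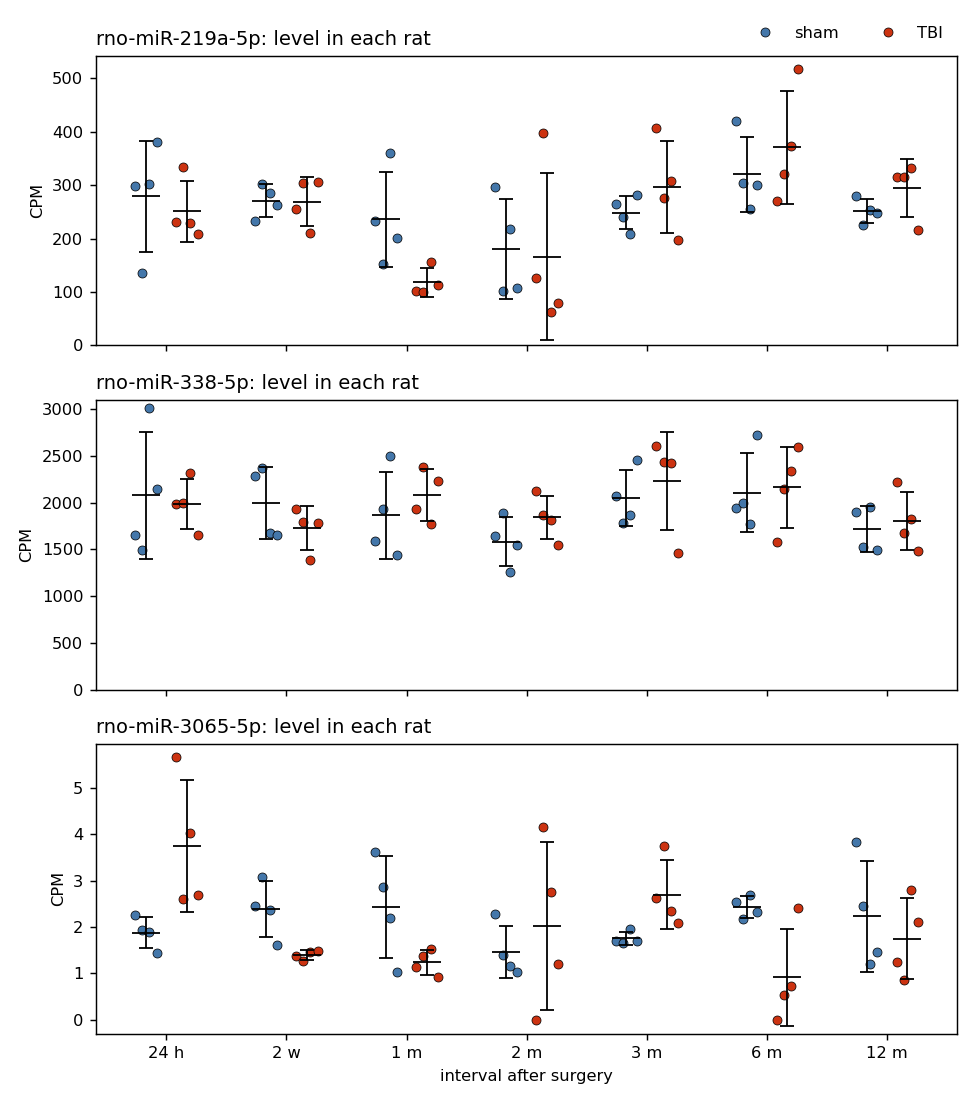
Level (CPM, linear axis) of each miRNA in each rat by interval after surgery, sham in blue and TBI in red, 4 rats a group, with the mean (line) and SD (bars). MiR-338-5p lies between 1262 and 3013 CPM throughout, miR-219a-5p is low in the 4 TBI rats at 1 m (100 to 157 CPM), and miR-3065-5p stays at or under 5.65 CPM with TBI rats above sham at 24 h and 3 m and below it at 2 w.

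In sham rats none of the 3 strands passed the test between intervals, where 27.1% of the 240 miRNAs tested did (edgeR quasi-likelihood F test, adjusted p under 0.05), so that 0 of 3 is near that share. The adjusted p was 0.310 for miR-219a-5p, 0.430 for miR-338-5p and 0.308 for miR-3065-5p. Mean miR-219a-5p ran from 181 ± 93.4 CPM at 2 m to 320 ± 70.1 CPM at 6 m (SD, n = 4), a 1.77-fold range. Mean miR-338-5p ran from 1584 ± 259 CPM at 2 m to 2109 ± 420 CPM at 6 m, a 1.33-fold range. Mean miR-3065-5p ran from 1.46 ± 0.558 CPM at 2 m to 2.44 ± 0.232 CPM at 6 m, a 1.67-fold range. All 3 strands therefore had their lowest sham mean at 2 m and their highest at 6 m, without a difference that passed the test.

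Nor did any of them show a slope with time in sham rats. The slope of log2 CPM per doubling of the days after surgery was -0.01 (SE 0.03, 95% interval -0.07 to 0.05) for miR-219a-5p, -0.02 (SE 0.02, -0.06 to 0.02) for miR-338-5p and 0.01 (SE 0.04, -0.06 to 0.08) for miR-3065-5p. The adjusted p was 0.928, 0.655 and 0.923 in edgeR, where 3.75% of the miRNAs tested had a slope. Ordered by level, the 7 sham means and the 7 TBI means of each strand formed 36 pairs of neighbours. In 0 of these pairs were the groups without overlap, and the lowest exact permutation p adjusted over the pairs was 0.943. Neighbours were picked as the closest means, so this result was nearly fixed in advance. It shows only that the order of neighbouring means was not resolved, and it is no test of change over time.

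MiR-219a-5p, the strand most tied to the exit from the precursor state, was lower in TBI than in sham rats at 1 m, by a difference that did not pass the threshold over all miRNAs. At 1 m the sham rats had 232.6, 152.9, 360.7 and 200.3 CPM, and the TBI rats had 101, 100, 157 and 113 CPM. Of the 4 TBI rats, 3 lay below all sham rats, and the group means were 237 ± 89 and 118 ± 26.6 CPM (SD, n = 4). The log2 fold change was -0.96 (SE 0.26), the fourth lowest p of 240 miRNAs tested (p = 0.00240, adjusted p = 0.144, edgeR quasi-likelihood test), and the two-sided exact permutation p was 0.0571, where 4 against 4 rats cannot go below 0.0286. At this interval 0.417% of the miRNAs tested were called. The call depended on the test. The adjusted p was 0.0222 with DESeq2 (Wald test) and 0.0319 with edgeR's likelihood ratio test, which called 2.31% and 2.08% of the miRNAs they tested. It was 0.0421 in a joint fit of all 56 libraries, which called 15.2%, and 0.0224 without the sham rat of replicate 2, where 1.63% were called. Over all the alternatives run the fold change kept its direction, and leaving out 1 rat at a time it lay between -1.19 and -0.69.

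Markers of other cells were compared at 1 m. The summed level of the leukocyte and microglia miRNAs (5 of 6 listed were in the table) was 2609 to 3332 CPM in the TBI rats and 1555 to 1741 CPM in the sham rats, without overlap. The summed level of the neuronal miRNAs (7 of 10 in the table) was 148577 to 229753 CPM in TBI and 216899 to 280724 CPM in sham rats, with overlap. No marker present in the table was at 0 in these groups, and their part in the lower miR-219a-5p was not tested.

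At the other 6 intervals the levels of miR-219a-5p in TBI and sham rats overlapped. At 24 h the sham rats had 298, 135, 302 and 382 CPM and the TBI rats 230, 335, 229 and 209 CPM (log2 fold change -0.15, SE 0.28). At 2 w all 8 rats lay between 210 and 306 CPM (0.01, SE 0.13). At 3 m the TBI rats had 406, 276, 308 and 197 CPM against 264, 240, 209 and 282 CPM in sham (0.29, SE 0.19). At 6 m they had 271, 321, 374 and 517 CPM against 420, 304, 256 and 301 CPM (0.21, SE 0.19). At 12 m they had 316, 315, 333 and 215 CPM against 280, 225, 253 and 248 CPM, with 3 of 4 TBI rats above all sham rats (0.21, SE 0.13). The adjusted p at these 5 intervals was between 0.469 and 0.991 in edgeR, and 1.72% of the miRNAs tested were called at 24 h and 0% at each of the other 4.

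At 2 m the rats were far apart within both groups. The sham rats had 295.8, 102.3, 218.7 and 107.6 CPM, and the TBI rats had 126.3 CPM (11 reads, rat X747), 398, 62.2 and 78.7 CPM. The library titles carry a number after the letter S. By this number the sham rats split as 295.8 and 218.7 against 102.3 and 107.6 CPM. The TBI rats split as 126.3 and 62.2 against 398 and 78.7 CPM. What the number stands for is not given, and its part in the levels was not tested. The log2 fold change was -0.12 (SE 0.55, 95% interval -1.20 to 0.95, adjusted p = 0.982, edgeR), and it was -1.22 (adjusted p = 0.268) without the TBI rat at 398 CPM, X749. That library also had the highest neuronal sum of all the libraries over 500000 reads, 355364 CPM, and its part in the value was not tested. Scaling by the total count alone in place of TMM shifted the mean of the TBI rats against that of the sham rats by -0.12 on the log2 scale at 2 m, and the log2 fold change of miR-219a-5p was then -0.33 (adjusted p = 0.820). At 2 m 0% of the 236 miRNAs tested were called.

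MiR-338-5p, the most abundant of the 3 strands, did not pass the test against sham at any interval, and its groups overlapped at each. The mean level was 2077 ± 684 CPM in sham and 1988 ± 268 CPM in TBI rats at 24 h (SD, n = 4). It was 1996 ± 382 and 1726 ± 237 CPM at 2 w, and 1865 ± 468 and 2078 ± 279 CPM at 1 m. The 2 m means were 1584 ± 259 and 1842 ± 234 CPM, and those of 3 m were 2046 ± 301 and 2231 ± 522 CPM. At the late intervals they were 2109 ± 420 and 2162 ± 432 CPM (6 m) and 1718 ± 246 and 1800 ± 312 CPM (12 m). The log2 fold change lay between -0.19 (SE 0.14) at 2 w and 0.22 (SE 0.20) at 1 m, and the lowest adjusted p was 0.628 (edgeR). Over all intervals it was 0.05 (SE 0.07) with a 95% interval of -0.09 to 0.18. At 1 m, where miR-219a-5p was low in the TBI rats, miR-338-5p was 1928, 2383, 1772 and 2230 CPM in them against 1591, 1933, 2494 and 1441 CPM in sham, and the groups overlapped.

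MiR-3065-5p, transcribed from the strand opposite miR-338, passed the test at no single interval, and it was counted in 0 to 50 reads per library. At 24 h all 4 TBI rats lay above all 4 sham rats. The TBI rats had 18, 26, 15 and 15 reads (5.65, 2.61, 4.02 and 2.69 CPM), and the sham rats had 16, 22, 7 and 11 reads (2.26, 1.94, 1.89 and 1.44 CPM). TBI exceeded sham by 0.93 on the log2 scale (SE 0.31, adjusted p = 0.370, edgeR), and 3.86% of the 233 miRNAs tested had all TBI rats above all sham rats.

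At 2 w the order was the reverse, and all 4 TBI rats lay below all 4 sham rats. The TBI rats had 4, 11, 9 and 9 reads (1.37, 1.26, 1.46 and 1.49 CPM) and the sham rats 19, 11, 16 and 6 reads (2.46, 3.08, 2.36 and 1.61 CPM). This gave a log2 fold change of -0.76 (SE 0.26, adjusted p = 0.292), and 1.76% of the 227 miRNAs tested had all TBI rats below all sham rats. At 2 w the strand passed the filter on low counts only through the sham rats, the group where it was high. These 2 w values are therefore no support for a difference. With 1 rat left out it was fitted in 6 cases, and it fell below the filter without sham replicate 1 or 3. At 1 m the TBI rats had 13, 8, 13 and 6 reads (1.13, 1.37, 1.54 and 0.931 CPM) against 50, 16, 17 and 8 reads (3.62, 2.85, 2.197 and 1.03 CPM) in sham. The groups overlapped (log2 fold change -0.95, SE 0.38, adjusted p = 0.238).

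At 2 m the TBI rats had 0, 45, 24 and 11 reads (0, 4.16, 2.75 and 1.19 CPM) and the sham rats 14, 10, 11 and 9 reads (2.27, 1.39, 1.17 and 1.02 CPM). In the fit on counts, which gives the shallow library little weight, the log2 fold change was 0.87 (SE 0.42, adjusted p = 0.596). The mean difference of log2 CPM, which weights all rats equally, was -0.09 with that library and 0.67 without it (exact permutation p = 0.971 with it and 0.200 without it). At 3 m all 4 TBI rats again lay above all 4 sham rats, with 5, 9, 6 and 9 reads (2.63, 3.75, 2.34 and 2.08 CPM) against 11, 6, 7 and 7 reads (1.70, 1.67, 1.97 and 1.69 CPM). Such an order was seen in 3.28% of 244 miRNAs. The strand was not tested by edgeR at 3 m because it did not pass the filter on low counts there, and its mean difference of log2 CPM was 0.51.

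At 6 m the TBI rats had 0, 3, 2 and 8 reads (0, 0.527, 0.738 and 2.41 CPM) and the sham rats 12, 8, 13 and 10 reads (2.54, 2.18, 2.70 and 2.32 CPM). Of the 4 TBI rats, 3 lay below all sham rats, and replicate 4 did not. The 13 reads of the TBI rats corresponded to a pooled level of 0.774 CPM (95% exact Poisson interval 0.412 to 1.32, counting error only), and the 43 reads of the sham rats to 2.46 CPM (1.78 to 3.31). The log2 fold change of -1.58 (SE 0.60) had an adjusted p of 0.761 in edgeR, and 0.182 to 0.996 over the alternatives. It was -2.59 without TBI replicate 4 and -1.10 without TBI replicate 1. At 12 m the groups overlapped, with 6, 4, 15 and 12 reads in TBI and 17, 10, 8 and 8 reads in sham rats (-0.28, SE 0.47, adjusted p = 0.855). The exact permutation p was 0.0286 at 24 h, 2 w and 3 m, the smallest that 4 against 4 rats allow, and 0.200 after adjustment over the 21 comparisons of 3 strands at 7 intervals. By counting error only, the Poisson intervals of the pooled levels overlapped at 2 w (TBI 0.951 to 1.94, sham 1.78 to 3.13 CPM). They also overlapped at 3 m (TBI 1.73 to 3.72, sham 1.19 to 2.48 CPM). At 24 h they did not (TBI 2.59 to 4.14, sham 1.42 to 2.44 CPM).

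Whether the difference between TBI and sham rats changed from interval to interval was tested in 1 fit of all 56 libraries. It did so for miR-3065-5p (adjusted p = 0.0146, place 6 of the 244 miRNAs tested, edgeR F test of 6 interaction terms), and 2.87% of the miRNAs tested were called. In the fit of all libraries, which covers the 3 m interval too, the log2 fold change was positive at 3 intervals: 0.92 (SE 0.39) after 24 h, 0.91 (SE 0.40) after 2 m and 0.59 (SE 0.47) after 3 m. It was negative at the other 4, with -0.77 (SE 0.43) after 2 w, -0.98 (SE 0.39) after 1 m, -1.58 (SE 0.51) after 6 m and -0.27 (SE 0.43) after 12 m. The adjusted p stayed between 0.000523 and 0.0330 when 1 rat at a time was left out, but it was 0.145 without the rats of 24 h and 0.0540 without those of 1 m. Intervals differ in cohort as well as in time, so that a difference between cohorts and one between times cannot be told apart here. For miR-219a-5p the adjusted p was 0.522, and it was 0.0167 without the TBI rat X749 at 2 m, where 7.26% of the miRNAs tested were called. For miR-338-5p it was 0.936.

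**Figure D2:**
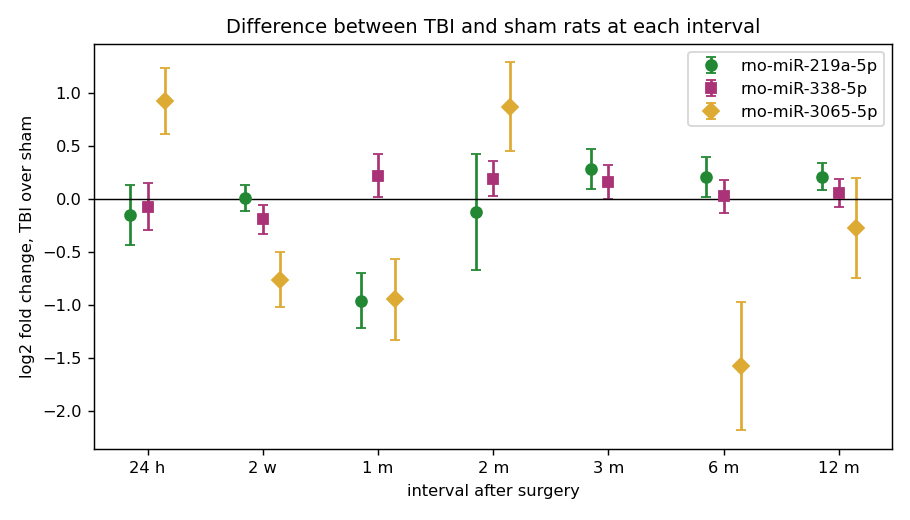
Log2 fold change of TBI over sham rats (points) with its SE (bars) for each miRNA at each interval, from edgeR on 4 against 4 rats; miR-3065-5p was not tested at 3 m. MiR-338-5p stays between -0.19 and 0.22, miR-219a-5p is at -0.96 at 1 m, and miR-3065-5p runs from 0.93 at 24 h to -1.58 at 6 m; no point passed an adjusted p of 0.05.

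Over all intervals together, with interval as a factor, none of the 3 strands differed between TBI and sham rats. The log2 fold change was -0.07 (SE 0.14, 95% interval -0.34 to 0.19) for miR-219a-5p and -0.10 (SE 0.20, -0.49 to 0.28) for miR-3065-5p, with adjusted p of 0.906 and 0.908 in edgeR. In this fit 4.51% of the miRNAs tested were called.

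Among the TBI rats alone, miR-219a-5p and miR-3065-5p differed between intervals, whereas miR-338-5p did not. The adjusted p was 0.0158 for miR-219a-5p, 0.0297 for miR-3065-5p and 0.289 for miR-338-5p (edgeR F test), where 25% of the 240 miRNAs tested were called. Mean miR-219a-5p ran from 118 ± 26.6 CPM at 1 m to 371 ± 106 CPM at 6 m (SD, n = 4), a 3.14-fold range, and mean miR-3065-5p from 0.919 ± 1.04 CPM at 6 m to 3.74 ± 1.43 CPM at 24 h, a 4.07-fold range. The mean of miR-338-5p had a 1.29-fold range. The call of miR-219a-5p was lost when single intervals or 1 rat were left out: the adjusted p was 0.304 without the rats of 1 m, 0.0599 without those of 6 m and 0.0511 without the TBI rat of replicate 4 at 1 m. The call of miR-3065-5p was lost without the rats of 24 h (adjusted p = 0.0854) and without replicate 1 of them (0.0511).

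No strand had a steady slope with time in the TBI rats. The slope of log2 CPM per doubling of time was 0.05 (SE 0.04) for miR-219a-5p, 0.01 (SE 0.02) for miR-338-5p and -0.12 (SE 0.06) for miR-3065-5p, with adjusted p of 0.683, 0.940 and 0.244 in edgeR, where 6.25% of the miRNAs tested had a slope. The slopes of TBI and sham rats differed by 0.05 (SE 0.06), 0.02 (SE 0.03) and -0.13 (SE 0.07) in the same order, with adjusted p of 0.929 or more, and 1.23% of the miRNAs tested were called.

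The ratio of 2 strands within a library needs no scaling and shows whether they kept their proportion. At 1 m the log2 ratio of miR-219a-5p to miR-338-5p was -4.25, -4.57, -3.50 and -4.30 in the TBI rats and -2.77, -3.66, -2.79 and -2.85 in the sham rats. Of the TBI rats, 3 lay below all sham rats, and the mean difference was -1.14 (exact permutation p = 0.0571, adjusted p = 0.171 over 21 ratios). At the other 6 intervals this ratio differed by -0.59 to 0.18 on the log2 scale.

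The proportion of the strands from opposite sides of the Mir338 locus overlapped between TBI and sham rats at every interval. The log2 ratio of miR-3065-5p to miR-338-5p was higher in TBI than in sham rats by 0.93 after 24 h, by 0.83 after 2 m and by 0.49 after 3 m on average. The 2 m value includes the library of rat X747, whose ratio comes from 0 reads of miR-3065-5p and the 0.5 added, and it was 0.60 without it. The same difference was -0.51 after 2 w and -1.001 after 1 m, then -2.08 after 6 m and -0.38 after 12 m. At 6 m the ratio of miR-3065-5p to miR-219a-5p was lower in all 4 TBI rats than in all 4 sham rats, with a mean log2 difference of -2.24 (exact permutation p = 0.0286). None of the 21 ratios passed adjustment (lowest adjusted p = 0.171), and those with miR-3065-5p carry its counting error and the 0.5 added to each count.

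**Figure D3:**
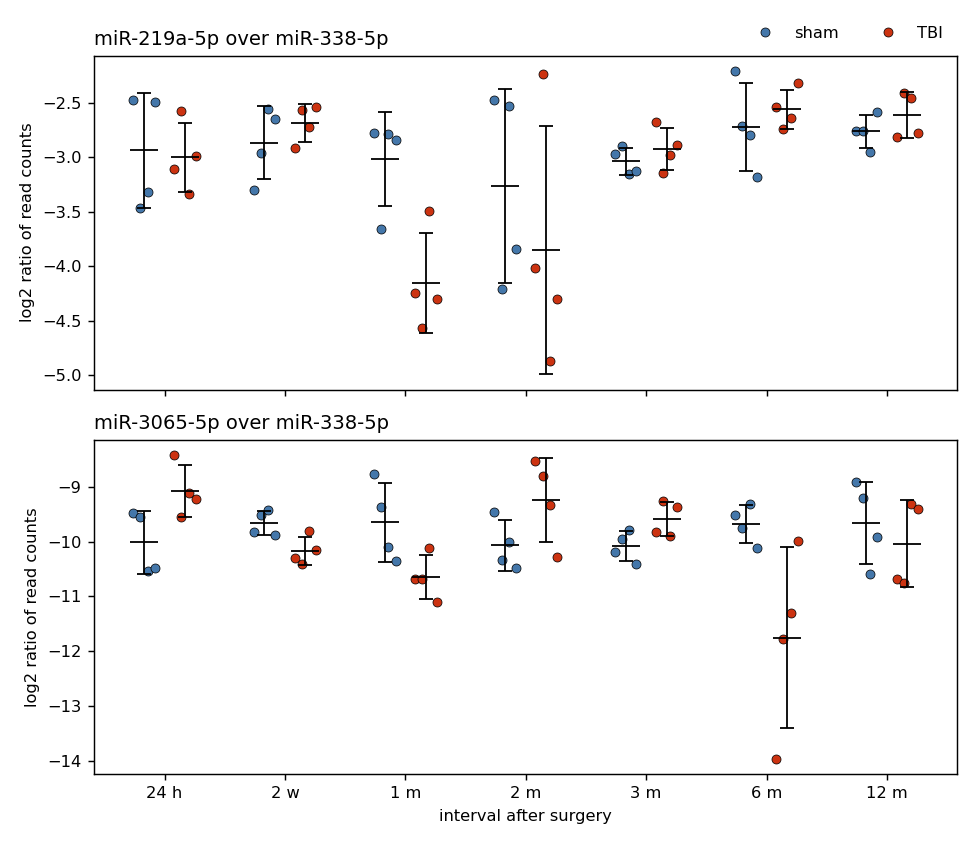
Log2 ratio of the read counts of 2 miRNAs within each library (0.5 added to each count), by interval, sham in blue and TBI in red, with the mean (line) and SD (bars) of 4 rats. For miR-219a-5p over miR-338-5p the TBI rats at 1 m have a mean of -4.15 against -3.02 in sham, and for miR-3065-5p over miR-338-5p the lowest point is the TBI rat at 6 m with no read of miR-3065-5p.

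Rats of 1 group that were high in 1 of the 3 strands tended weakly to be high in the others. After the mean of each group was subtracted, Pearson's r over the 55 libraries above 500000 reads was 0.33 between miR-338-5p and miR-219a-5p, 0.31 between miR-338-5p and miR-3065-5p and 0.31 between miR-219a-5p and miR-3065-5p. Spearman's rho was 0.35, 0.22 and 0.17 in the same order. None passed a permutation test (100000 resamples within groups) after adjustment over the 3 pairs: the raw p of r was 0.0230, 0.0447 and 0.0876 and the adjusted p 0.0670, 0.0670 and 0.0876, while the raw p of rho was 0.0233, 0.156 and 0.300 and the adjusted p 0.0699, 0.233 and 0.300. Without the 2 libraries farthest from the median on the x axis r was 0.29, 0.32 and 0.28. Between miR-338-5p and miR-219a-5p r was 0.26 in the 28 sham libraries and 0.41 in the 27 TBI libraries, where the adjusted permutation p was 0.0443 over 3 pairs and 0.101 over the 9 relations computed, and the difference between sham and TBI was not tested.

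The miRNAs most like each strand were taken as the highest of many correlations, so that their r is high by the choice. Among 184 further miRNAs with a mean of at least 10 CPM, the highest r with miR-219a-5p was that of miR-32-5p (0.83), before miR-33-5p (0.77) and miR-136-5p (0.67), and miR-338-5p stood at place 34. For miR-338-5p they were miR-181b-5p (0.79), miR-181a-5p (0.64) and let-7a-5p (0.63). For miR-3065-5p they were miR-3068-5p (0.43), miR-98-5p (0.41) and miR-26a-5p (0.39), and 0 of these 3 remained among the highest when the shallow library was added. These values are descriptions over rats that share library scaling, with no test. MiR-32-5p also stands on the list for differentiation below. At 1 m it had 63, 49.4, 104 and 85 CPM in sham rats and 34.6, 37.1, 62.6 and 53.6 CPM in TBI rats (log2 fold change -0.64, SE 0.27, adjusted p = 0.244, edgeR), and the groups overlapped. Of the other miRNAs of that list tested at 1 m, miR-138-5p was lower in TBI rats (-0.40, SE 0.17) and miR-219b higher (0.46, SE 0.34). Neither passed the test (adjusted p = 0.244 and 0.539, edgeR). MiR-219b rested on few reads at 1 m, with 24, 9, 8 and 9 in the TBI rats and 16, 5, 8 and 11 in the sham rats.

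**Figure D4:**
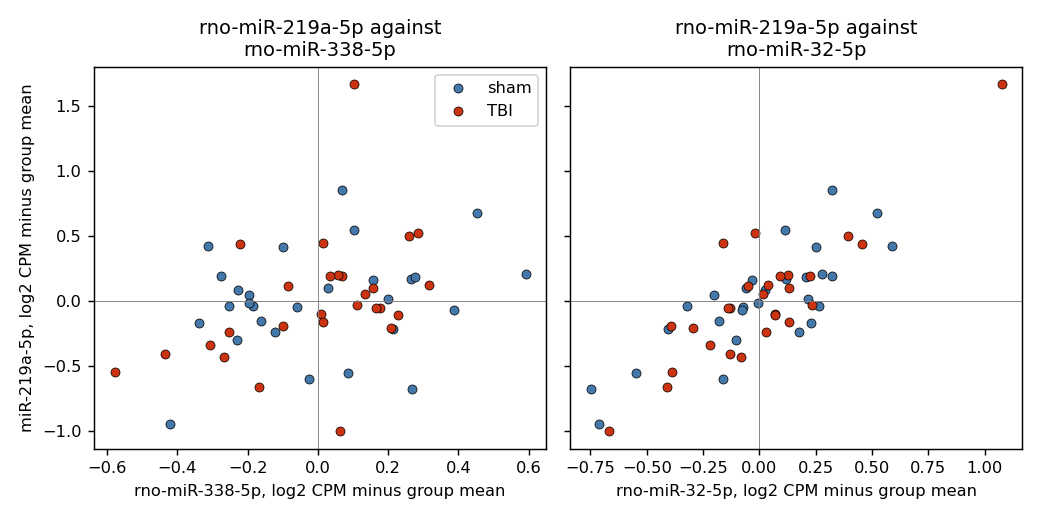
Log2 CPM of miR-219a-5p less its group mean against that of miR-338-5p (left) and of miR-32-5p (right), each point 1 of the 55 libraries above 500000 reads, sham in blue and TBI in red. The points lie closer to a line with miR-32-5p (r = 0.83) than with miR-338-5p (r = 0.33); the TBI point at the top is rat X749 at 2 m.

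Further miRNAs of the lineage were taken from a pair of lists. The list for differentiation held 12 miRNAs besides the 3 strands, of which 4 were in the table: miR-138-5p, which promotes early steps of differentiation, miR-23a-5p, miR-32-5p and miR-219b. Of the 2 to 3 that were tested at each interval, 0 were called against sham, where 1.72% of all miRNAs were at 24 h, 0.417% at 1 m and 0% at the other intervals. Between the intervals in TBI rats 2 of 3 differed, miR-32-5p (adjusted p = 0.0297) and miR-138-5p (adjusted p = 0.0490), where 25% of all miRNAs did. In sham rats 0 of 3 were called between intervals, where 27.1% of all miRNAs were.

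The list for precursors, with several strands of the miR-17 cluster, which drives cell division, held 15 miRNAs, of which 9 were in the table and 8 were tested. At 24 h 2 of the 8 were called higher in TBI rats, where 1.72% of all miRNAs were called in either direction: miR-27a-5p (log2 fold change 0.97, SE 0.20) and miR-20a-5p (0.80, SE 0.17), both with an adjusted p of 0.0361 in edgeR. Without a call, miR-125a-5p (-0.25, SE 0.15) and miR-212-5p (-0.06, SE 0.16) were lower, and miR-17-5p, miR-18a-5p, miR-7a-5p and miR-9a-5p were higher. The median of the list was 0.43 against -0.02 over all miRNAs tested. Over all intervals 3 of 8 were called higher in TBI rats, miR-27a-5p (0.42, SE 0.09), miR-20a-5p (0.32, SE 0.09) and miR-17-5p (0.24, SE 0.07), and 0 were called lower, where 4.51% of all miRNAs were called. Without a call, miR-125a-5p (-0.11, SE 0.06) and miR-9a-5p (-0.01, SE 0.06) were lower, and miR-18a-5p, miR-7a-5p and miR-212-5p were higher. With time after injury 4 of 8 had a fall that was called in TBI rats, by 0.10 for miR-17-5p, 0.11 for miR-18a-5p, 0.10 for miR-27a-5p and 0.09 for miR-20a-5p on the log2 scale per doubling of time, where 6.25% of all miRNAs had a slope. The slopes of miR-7a-5p, miR-9a-5p, miR-125a-5p and miR-212-5p lay between -0.02 and -0.001. MiR-17-5p, miR-18a-5p and miR-20a-5p belong to the miR-17 cluster, so the counts of this list are not of independent miRNAs. The slopes of TBI and sham rats differed for 0 of the 8 (1.23% of all miRNAs), and that of miR-18a-5p was -0.07 (SE 0.03, adjusted p = 0.153, edgeR) in sham rats. Between intervals in sham rats 4 of 8 were called (miR-9a-5p, miR-7a-5p, miR-212-5p and miR-17-5p), where 27.1% of all miRNAs were, and in TBI rats 1 of 8 (miR-17-5p), where 25% were. These miRNAs are also expressed in dividing and immune cells, and the leukocyte and microglia sum at 24 h was 2027 to 2874 CPM in TBI against 1857 to 3276 CPM in sham rats. That sum did not overlap between the groups at 1 m (2609 to 3332 against 1555 to 1741 CPM) and at 2 m (1994 to 2814 against 1512 to 1674 CPM), and its part in the calls over all intervals was not tested.

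The markers of other cells bear on the levels above as follows. Over the 55 libraries the neuronal sum lay between 148577 and 355364 CPM and the vessel wall sum (3 of 5 in the table) between 697 and 2077 CPM. The red cell sum (2 of 3) lay between 36 and 340 CPM. The choroid plexus sum (4 of 4) lay between 1182 and 20841 CPM. At 3 m it was 3729, 2601, 20841 and 18388 CPM in the sham rats and 3298 to 4152 CPM in the TBI rats, and at 12 m it reached 19378 CPM in sham replicate 3. At 3 m miR-3065-5p was 1.97 and 1.69 CPM (7 reads each) in the sham rats with the high sums. It was 1.70 and 1.67 CPM (11 and 6 reads) in the other sham rats. The part of the choroid plexus sum in the values of miR-3065-5p at 3 m was not tested. At 2 w the leukocyte and microglia sum was 1865 to 3458 CPM in TBI rats and 1561 to 1891 CPM in sham, and at 6 m 1879 to 2489 and 1754 to 2067 CPM. Its part in the values of miR-3065-5p at these intervals was not tested.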

How the data were processed

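Hippocampal RNA of 56 rats was extracted, made into small RNA libraries with a New England Biolabs kit and sequenced on an Illumina instrument. The authors trimmed the reads and used miRDeep2 with miRBase to count them for each mature strand, after base calling with bcl2fastq 2.20.0.422 per the labels. The deposited table holds these raw counts, with no normalization, and 0 of its columns were unused. The genome build, and the handling of reads that match more than 1 miRNA, are not given in the sources used here.

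Groups came from the treatment and time labels. In R 4.3.3 with edgeR 4.0.16, counts were filtered (filterByExpr), scaled (TMM) and compared with the quasi-likelihood test, on the 8 libraries of an interval, the 28 of a treatment or all 56. P-values were adjusted over all miRNAs tested (Benjamini-Hochberg, threshold 0.05). Exact permutation tests used 35 splits of log2 CPM (prior count 2). Nothing in the labels says that same-group rats came from separate litters or cohorts. The 3 strands, the lists and the markers were chosen with earlier results of these data known. The 3 strands were named in every comparison, with the 3 most correlated miRNAs of each and up to 4 with the lowest p from each list. Alternatives were DESeq2 1.42.0 (size factors, Wald and likelihood ratio tests), total-count scaling, no filter, a joint fit and leaving out each rat. The edgeR tests of TBI against sham and of slopes with time were tested on simulated data. The edgeR F tests between intervals were not. Libraries of the same group all differed by more than counting error (chi-square over degrees of freedom at least 17.5). Depth (69628 to 12468979 counts per library) limits miR-3065-5p most. Sequences and neighbouring genes are from RefSeq (GRCr8), where all 3 strands matched by name. Python 3.11.15 and matplotlib 3.10.9 were used for tables and figures.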

Additional observations from a re-analysis of the deposited data

Results flagged for a closer look

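In 4 of 42 groups of 4 rats, 1 rat stood apart from the other 3 by Dixon's test, where chance gives about 2.1 (1 in 20). MiR-219a-5p was 335 CPM in TBI replicate 2 at 24 h, against 209 to 230 CPM in the other 3 rats. It was 215 CPM in TBI replicate 4 at 12 m, against 315 to 333 CPM. MiR-338-5p was 1457 CPM in TBI replicate 4 at 3 m, against 2425 to 2604 CPM. MiR-3065-5p was 1.97 CPM (7 reads) in sham replicate 3 at 3 m, against 1.67 to 1.70 CPM, a gap worth less than 1 read in that library.

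The difference between TBI and sham rats changed between intervals for miR-3065-5p (adjusted p = 0.0146, edgeR F test). It rests on 0 to 50 reads per library, and in that fit the log2 fold change was positive after 24 h, 2 m and 3 m and negative at the other 4 intervals.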

How the results depend on the processing

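Of the results recomputed, 300 kept their direction and their side of the threshold under another setting, and 1129 did when 1 rat was left out; 11 and 33 changed sign, all of them values that had not passed a test. Where no cause is named below, the cause was not tested. Depth limits miR-3065-5p most, with a median of 10 reads per library, and the shallow library of rat X747 limits the 2 m interval. The intervals left out in turn, and the TBI rats without the library under 500000 counts, were chosen after seeing the data.

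At 1 m the log2 fold change of miR-219a-5p was -0.96 in DESeq2 (adjusted p = 0.0222), -0.96 in edgeR's likelihood ratio test (0.0319) and -1.005 in the joint fit (0.0421), each past the threshold. At 2 w it was -0.00867 in the joint fit. That of miR-338-5p at 6 m was -0.0116 with no filter. The sham slope of miR-219a-5p was 0.000291 per day, and without the 24 h rats it was 0.0315 per doubling of time, where that of miR-3065-5p was -0.0224. The TBI slope of miR-338-5p was -0.000162 with DESeq2 size factors, -0.00104 with total counts, -0.000182 in the Wald test of DESeq2 and -0.000113 per day. Without the 24 h rats the TBI slope of miR-3065-5p was 0.0298 and the difference of its slopes 0.0569. The adjusted p of the injury effect between intervals for miR-3065-5p was 0.145 without 24 h and 0.0540 without 1 m. That of the TBI rats between intervals was 0.304 without 1 m and 0.0599 without 6 m for miR-219a-5p, and 0.0854 without 24 h for miR-3065-5p. With a prior count of 0.5 the permutation test of r over 55 libraries passed for miR-338-5p with miR-219a-5p and with miR-3065-5p (r = 0.333 for both, adjusted p = 0.0457).

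With 1 rat left out, the log2 fold change of miR-219a-5p ran from -0.410 to 0.0696 after 24 h and from -0.0686 to 0.104 after 2 w. It ran from -1.19 to -0.694 after 1 m, and from -1.22 to 0.266 after 2 m. That of miR-338-5p ran from -0.232 to 0.166 (24 h), -0.0436 to 0.174 (6 m) and -0.0432 to 0.138 (12 m), and that of miR-3065-5p from -0.559 to 0.110 at 12 m. The adjusted p of the injury effect between intervals for miR-219a-5p ran from 0.0167 to 0.753, and that of the TBI rats between intervals from 1.63e-06 to 0.0511 for miR-219a-5p and from 0.00311 to 0.0511 for miR-3065-5p. The sham slopes ran from -0.0280 to 0.0157 for miR-219a-5p, -0.0313 to 0.00646 for miR-338-5p and -0.0105 to 0.0230 for miR-3065-5p. The TBI slope of miR-338-5p ran from -0.00463 to 0.0121, and the difference of its slopes from -0.00532 to 0.0311. The log2 ratio of miR-219a-5p to miR-338-5p ran from -0.240 to 0.0918 at 24 h, and that of miR-3065-5p to miR-219a-5p from -0.158 to 0.445 at 1 m.

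The titles carry a number after the letter S, whose meaning they do not give. At 12 m each number was shared by 1 sham and 1 TBI library, and at the other 6 intervals by 2 rats of the same group. At 12 m the correlation of their deviations was 0.116, 0.0238, 0.412 and 0.103, so the numbers were not taken to pair the rats. At 12 m no call changed with that number as a block.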
